A study of Mus musculus with 79 samples.

Results

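The genes described here are 8 genes of cholesterol synthesis in mouse quadriceps, out of 22335 genes named on the array: Hmgcs1, Idi1, Fdps, Fdft1, Sqle, Cyp51, Dhcr7 and Insig1. They were chosen by name, and each was read from the probeset with its symbol that had the highest mean over all arrays, which gave 8 of 35556 probesets. Of these genes, 7 encode enzymes of the pathway and Insig1 encodes a protein that controls it. Cyp51 was listed under its synonym Cyp51a1, and the other 7 under their current symbols. Fdft1 had 3 probesets and Idi1 had 2, and the other 6 had 1 each.

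Cells make cholesterol from acetyl-CoA through the mevalonate pathway, which builds isoprenoid units, joins them into squalene and closes squalene into a sterol that later enzymes trim to cholesterol. When sterols in the membrane of the endoplasmic reticulum are low, SCAP carries the SREBP transcription factors to the Golgi for cleavage, and SREBP then raises transcription of the genes of this pathway. When sterols are high, INSIG proteins hold SCAP in the endoplasmic reticulum and the genes are transcribed less.

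Quadriceps RNA came from males of BXD strains, which are inbred lines derived from a cross of C57BL/6J with DBA/2J, and from males of both parents. The chow diet (CD, Harlan 2018) was compared with a high fat diet (HFD, Harlan 06414) that was started at 8 weeks of age, and all mice were killed at 29 weeks after an overnight fast. There were 42 CD arrays and 37 HFD arrays from 40 BXD strains and 2 parental strains, 37 of them with an array on each diet and 5 with a CD array alone. Each array was a pool of about 5 animals of 1 strain on 1 diet, so variation among animals within a strain is not visible. RNA was extracted at 2 times, and the titles name 2 batches without saying of what. Batch 1 took in 18 arrays from CD and 17 from HFD, and batch 2 took in 24 from CD and 20 from HFD. Values are scores that average 8.0 over the probesets of each array, with an SD of 2.0, and they are given below in these units. The log base behind the scores was not stated, so no folds are given.

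Some arrays stood apart. The arrays labelled BXD63 went against their diet labels: of the 200 probesets with the largest diet difference in the other 36 strains, 10 followed the label in BXD63, where each other strain gave 173 to 198. The HFD arrays of BXD79, BXD69 and BXD62 had the lowest median correlation with the other arrays, at 0.975 to 0.977, where the other 76 arrays gave 0.981 to 0.987. Alb, a liver gene, lay at 11.50 to 11.64 on both BXD51 arrays and the CD array of BXD66, where the other 76 arrays lay between 6.35 and 9.03. For the 8 genes, values without these arrays are given where a call changed, and the counts of strains by direction are given with and without BXD63. The myofibre markers Ckm and Acta1 had means of 15.08 and 15.17 on CD, where the mean of all probesets was 8.0.

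Promoters were available for 5 of the 8 genes in a RefSeq table of build GRCm38.p6. The 250 bases before the start of transcription are shown for Hmgcs1, Idi1 and Insig1, because these are the genes that rose on HFD in the comparison below. The window of Hmgcs1 was chr13:119690101-119690350 on the plus strand, that of Idi1 was chr13:8885356-8885605 on the plus strand, and that of Insig1 was chr5:28071162-28071411 on the plus strand. Capitals mark matches on either strand to the CCAAT box, which NF-Y binds, and to TCACNCCAC, a form of the sterol regulatory element that SREBP binds.
Hmgcs1: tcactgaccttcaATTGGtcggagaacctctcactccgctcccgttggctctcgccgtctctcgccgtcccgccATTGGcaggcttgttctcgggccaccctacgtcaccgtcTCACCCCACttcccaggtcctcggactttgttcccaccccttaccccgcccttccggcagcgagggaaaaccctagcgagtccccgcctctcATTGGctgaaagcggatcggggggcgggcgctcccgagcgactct
Idi1: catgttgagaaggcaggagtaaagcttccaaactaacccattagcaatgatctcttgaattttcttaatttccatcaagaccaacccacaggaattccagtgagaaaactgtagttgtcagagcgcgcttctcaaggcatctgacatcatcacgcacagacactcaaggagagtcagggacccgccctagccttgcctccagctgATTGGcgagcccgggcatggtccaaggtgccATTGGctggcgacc
Insig1: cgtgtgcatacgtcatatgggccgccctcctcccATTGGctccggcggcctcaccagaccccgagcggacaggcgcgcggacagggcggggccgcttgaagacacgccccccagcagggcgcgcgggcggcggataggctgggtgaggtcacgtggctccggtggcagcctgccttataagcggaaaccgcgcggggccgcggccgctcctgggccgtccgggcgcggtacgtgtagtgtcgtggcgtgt

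The Hmgcs1 window held 1 match to TCACNCCAC, and the windows of Idi1, Cyp51, Dhcr7 and Insig1 held none. A match to that motif was present in 1.05% of the 32851 promoters of the table. CCAAT was matched 3 times in Hmgcs1, 2 times in Idi1, 1 time in Insig1 and 1 time in Cyp51, where 33.8% of all promoters held at least 1 match. Of the 3 starts listed for Dhcr7, 1 held 2 matches to CCAAT and the other two held none. GGGCGG, the GC box, was matched in all of Hmgcs1, Idi1, Cyp51 and Insig1 and in 2 of the 3 Dhcr7 windows, against 32.7% of all promoters. CACGTG was matched in Insig1 and in 1 Dhcr7 window, against 6.02%. None of these motifs overlapped another in these windows, and a match is a description of letters only.

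The first comparison asked whether the genes differed between diets. Hmgcs1, Idi1 and Insig1 rose on HFD by 0.15 to 0.20 units and Sqle fell by 0.14 units, whereas Fdps, Fdft1, Cyp51 and Dhcr7 did not pass the test. Thus 4 of the 8 genes were called, 3 higher and 1 lower, where 38.1% of all 35556 probesets were called, 18.9% higher and 19.3% lower on HFD. With arrays centred on their median these directions were 23.1% and 16.2%. The share called among the 8 genes was near that background and is no result about them as a group. Their median difference was 0.05 units, beside -0.001 units over all probesets. Values for each gene follow in the order of the pathway, and the plot of values by diet shows every array.

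**Figure D1:**
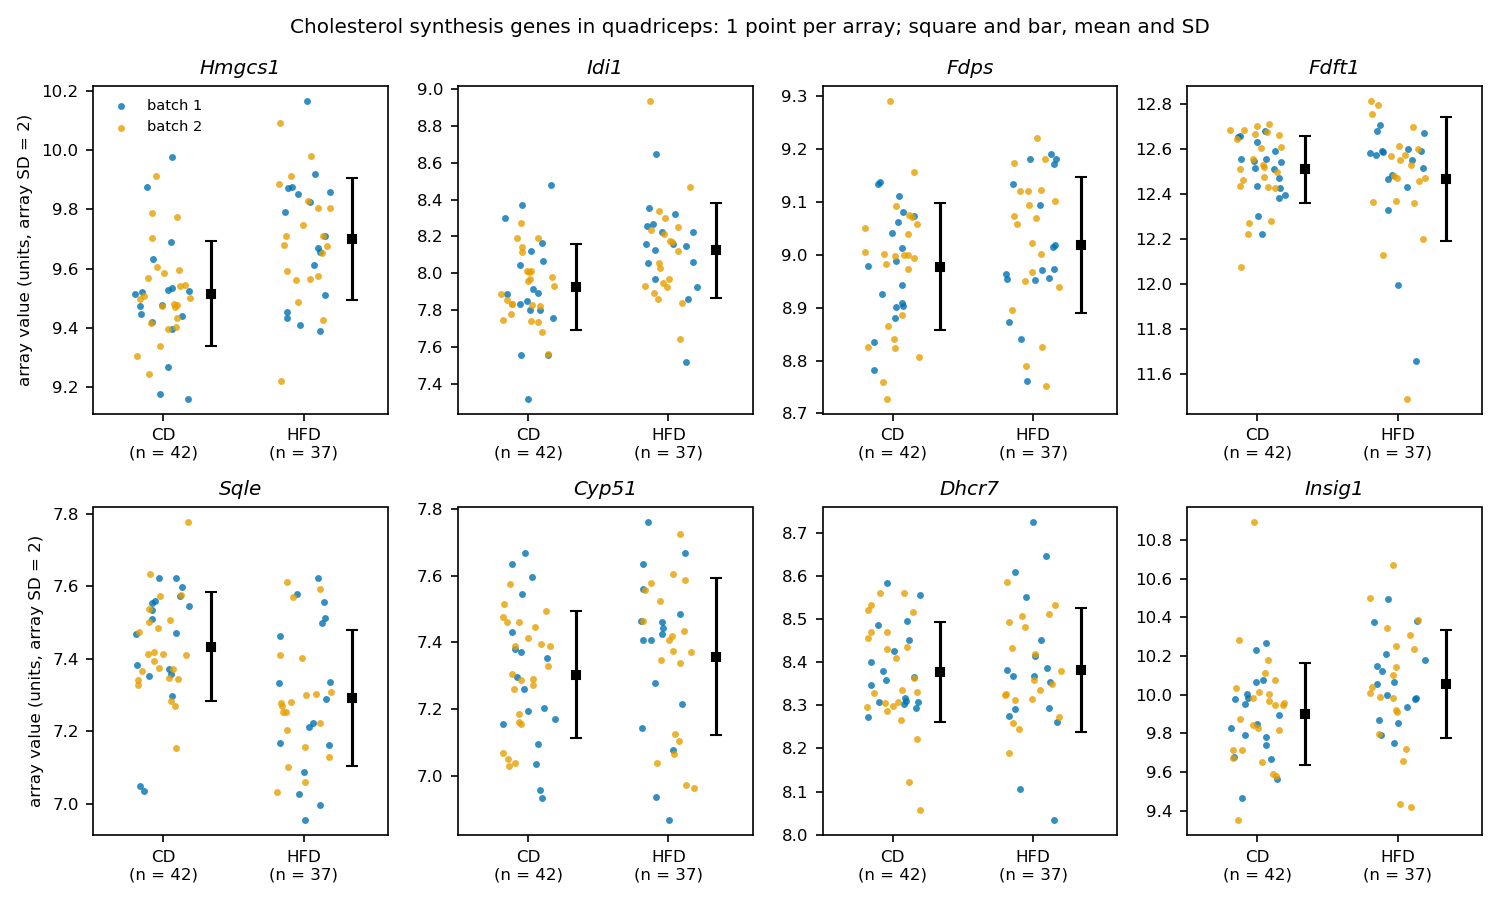
Array values of the 8 genes on CD (42 arrays) and HFD (37 arrays), in units in which every array has an SD of 2, with 1 point for each array coloured by batch and a square with a bar for the mean and SD. The diets overlap for every gene, Hmgcs1, Idi1 and Insig1 are shifted up and Sqle down on HFD, and 2 HFD arrays of Fdft1 lie below 11.7.

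Hmgcs1 encodes the cytosolic HMG-CoA synthase, an early enzyme of the mevalonate pathway. On CD its values ran from 9.16 in BXD90 through a median of 9.50 to 9.98 in BXD65, and on HFD from 9.22 in BXD48 through 9.71 to 10.17 in BXD65. The 2 ranges overlapped over most of their length, and BXD65 was the highest strain on both diets. The mean was 9.52 ± 0.18 (SD, n = 42) on CD and 9.70 ± 0.21 (SD, n = 37) on HFD. The difference was 0.19 ± 0.04 units (SE, limma with batch as a term, adjusted p = 0.000306), which is about the size of the spread between strains. It was 0.20 units in batch 1 (adjusted p = 0.0509) and 0.17 units in batch 2 (adjusted p = 0.0138).

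Idi1 encodes the isomerase that converts isopentenyl diphosphate to dimethylallyl diphosphate, the 2 building blocks of isoprenoids. Its CD values ran from 7.32 in BXD43 through a median of 7.89 to 8.48 in BXD87, and its HFD values from 7.52 in BXD43 through 8.15 to 8.93 in BXD69. The diets overlapped, and BXD43 was the lowest strain on both. The mean rose from 7.93 ± 0.23 (SD, n = 42) to 8.12 ± 0.26 (SD, n = 37), a difference of 0.20 ± 0.05 units (SE, adjusted p = 0.00243). A second Idi1 probeset, which correlated with the first at r = 0.93 over 79 arrays after diet and batch means were removed, gave 0.18 ± 0.05 units (SE, adjusted p = 0.00246). Its 10 named neighbours by probeset number do not lie on the chromosome of Idi1, while the 10 of the first probeset all lie within 5 Mb of the gene.

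Fdps encodes farnesyl diphosphate synthase, which supplies the last compound shared by sterols and prenylated proteins. Values on CD ran from 8.73 in BXD62 through 9.00 to 9.29 in BXD75, and on HFD from 8.75 in BXD81 through 9.02 to 9.22 in BXD89. The HFD range lay within the CD range. The difference of 0.04 units (95% interval -0.01 to 0.10) did not pass the test (adjusted p = 0.243).

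Fdft1 encodes squalene synthase, the enzyme that commits farnesyl diphosphate to sterols. By its brightest probeset (10412911), values on CD ran from 12.08 in BXD85 through 12.53 to 12.71 in BXD48, and on HFD from 11.49 in BXD69 through 12.55 to 12.82 in BXD103. The HFD median lay above the CD median while the HFD mean of 12.47 ± 0.28 (SD, n = 37) lay below the CD mean of 12.51 ± 0.15 (SD, n = 42), since 5 HFD arrays lay at 11.49 to 12.20 and the other 32 at 12.33 to 12.82. The difference of -0.04 units (95% interval -0.14 to 0.05) did not pass the test (adjusted p = 0.525).

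The 3 Fdft1 probesets differed in direction between the diets. Probeset 10412909 fell by 0.15 units (SE 0.04, adjusted p = 0.00389), and probeset 10420730 gave 0.04 units (95% interval -0.03 to 0.11, adjusted p = 0.377). These 2 probesets correlated at r = 0.84 over the 79 arrays, with diet and batch means removed, whereas the brightest probeset gave r = -0.10 and r = -0.02 with them. By probeset number, the 10 nearest named genes of 10420730, which include Defb30 and Neil2, all lie within 5 Mb of Fdft1, and those of the other two probesets do not. The brightest probeset correlated at r = 0.76 with the mean of 6 myofibre markers, against -0.13 for 10420730 and -0.30 for 10412909. Without the 3 HFD arrays of lowest median correlation, which hold the 2 lowest Fdft1 values, its difference was 0.02 units (adjusted p = 0.699). The brightest probeset also correlated at r = 0.65 with the median correlation of each array with the others, and 31 of the 50 probesets most like it carry no gene symbol. Whether it measures Fdft1 was not tested. Values of Fdft1 below rest on the brightest probeset unless 10420730 is named.

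Sqle encodes squalene epoxidase, which adds oxygen to squalene ahead of ring closure and is a slow step of the pathway. Its CD values ran from 7.04 in BXD51 through a median of 7.42 to 7.78 in BXD101, and its HFD values from 6.96 in BXD96 through 7.28 to 7.62 in BXD100. The diets overlapped over nearly the whole range, and the HFD median lay below the CD median. The mean went from 7.43 ± 0.15 (SD, n = 42) to 7.29 ± 0.19 (SD, n = 37), a difference of -0.14 ± 0.04 units (SE, adjusted p = 0.00178). It was -0.14 units in each batch, with adjusted p = 0.149 in batch 1 and 0.0163 in batch 2. Sqle and Cyp51 had means below the median probeset and were not tested when dim probesets were left out.

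Cyp51 encodes lanosterol 14-demethylase, and Dhcr7 encodes 7-dehydrocholesterol reductase, which makes cholesterol itself. Cyp51 ran from 6.94 in BXD43 through 7.30 to 7.67 in BXD92a on CD, and from 6.87 in BXD44 through 7.41 to 7.76 in BXD84 on HFD. Dhcr7 ran from 8.06 in BXD98 through 8.36 to 8.58 in C57BL/6J on CD, and from 8.03 in BXD44 through 8.37 to 8.72 in BXD100 on HFD. The diets overlapped for both genes, and the HFD range was the wider of the 2 ranges in each. The difference was 0.05 units (95% interval -0.04 to 0.15, adjusted p = 0.386) for Cyp51. For Dhcr7 it was 0.005 units (95% interval -0.05 to 0.06, adjusted p = 0.918).

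Insig1 encodes an INSIG protein and is itself a target of SREBP. Its CD values ran from 9.35 in BXD81 through a median of 9.92 to 10.89 in BXD56, and its HFD values from 9.42 in BXD103 through 10.04 to 10.67 in BXD79. The highest array of the whole set was on CD, and BXD81 was the lowest strain on CD and the second lowest on HFD at 9.44. The mean rose from 9.90 ± 0.26 (SD, n = 42) to 10.06 ± 0.28 (SD, n = 37), a difference of 0.15 ± 0.06 units (SE, adjusted p = 0.037). The call was lost without BXD63 (0.14 units, adjusted p = 0.0524), without the parental strains (0.15 units, 0.0605) and after renewed quantile normalization (0.14 units, 0.0588). It was also lost without the 3 arrays of lowest median correlation (0.12 units, adjusted p = 0.102), without the 3 arrays of highest Alb (0.14 units, 0.0598), in batch 1 (0.19 units, 0.0686) and in batch 2 (0.12 units, 0.358). With strain as a block in the limma fit, Insig1 was called at 0.14 ± 0.04 units (SE, adjusted p = 0.00949).

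Within single batches 0 of the 8 genes were called in batch 1, where 12.6% of all probesets were called and limma gave an unadjusted p below 0.05 for Hmgcs1, Idi1, Sqle and Insig1. In batch 2 Hmgcs1, Idi1 and Sqle were called, where 24.4% of all probesets were. The 4 called genes had the same sign in both batches, and the difference between batches was not tested. Without BXD63, 3 of the 8 genes were called, where 39.6% of all probesets were. With strain as a block the 4 genes were called, where 40.6% of all probesets were, and by the methods' t-test likewise, where 38.4% were.

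Markers of other cell types in the muscle were set beside these differences, where 18.9% of all probesets were higher and 19.3% lower on HFD. Of 4 macrophage markers, 3 were higher on HFD (Adgre1, Cd68 and Csf1r), and their mean ran from 8.53 to 9.45 on CD and from 8.71 to 9.99 on HFD. Csf1r was at adjusted p = 0.0497 and lost its call under 9 alternatives, among them the methods' t-test (0.0504) and the fits without the 3 arrays of lowest median correlation (0.164) and of highest Alb (0.0716), while Lyz2 gained one with strain as a block (0.0173). Of 7 adipocyte markers, 5 were higher and 1 was lower on HFD, and their mean ran from 9.27 to 10.96 on CD and from 9.43 to 11.43 on HFD. Endothelial markers were higher for 3 of 4, myofibre markers for 1 of 6 and Schwann cell markers for 2 of 6 with 1 lower, and 0 of 4 fibroblast and 0 of 3 hepatocyte markers were called. The Schwann cell markers higher on HFD were 3 without the arrays of lowest median correlation and 1 without those of highest Alb. With arrays centred on their median, 4 Schwann cell markers were higher and 0 lower, and 1 of 4 fibroblast markers was higher. In bulk tissue, fewer cells of a type and less RNA per cell cannot be told apart.

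The fit was repeated with a marker mean as a term, and whether the 4 called genes differed in their change was not tested. With the macrophage marker mean as a further term, the difference was 0.05 units for Insig1 (adjusted p = 0.606) and 0.12 units for Idi1 (adjusted p = 0.125). Hmgcs1 then kept a difference of 0.15 units (adjusted p = 0.012), and Sqle one of -0.14 units (adjusted p = 0.00645). So 2 of the 8 genes were called with this term, where 28.9% of all probesets were. With the adipocyte marker mean as the term, Insig1 was at 0.05 units (adjusted p = 0.567), while Hmgcs1 at 0.13 units, Idi1 at 0.20 units and Sqle at -0.14 units were called, where 31.3% of all probesets were. Over 79 arrays with diet and batch means removed, Insig1 correlated with the macrophage marker mean at r = 0.40, with the adipocyte marker mean at 0.35 and with the myofibre marker mean at -0.47. With the same 3 means Idi1 gave 0.34, 0.01 and -0.325, Hmgcs1 gave 0.20, 0.275 and -0.03, and Sqle gave 0.01, -0.01 and 0.20. The part of other cells in these differences was not tested.

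The other genes of the pathway came from lists written with earlier results of these data known. Of 14 other synthesis genes, 3 rose and 1 fell on HFD, and 10 did not pass the test, with a median difference of 0.03 units. The 28.6% called lay below the 38.1% called over all probesets, so the count is no result about the list. Sc5d, the lathosterol desaturase, rose by 0.17 ± 0.04 units (SE, adjusted p = 0.000272), Nsdhl, a dehydrogenase that acts on the sterol ring, by 0.15 ± 0.03 units (adjusted p = 9.76e-05), and Mvk, mevalonate kinase, by 0.06 ± 0.02 units (adjusted p = 0.0229). Pmvk, phosphomevalonate kinase, fell by 0.07 units (adjusted p = 0.0263). Pmvk lost its call in batch 1 (adjusted p = 0.152), in batch 2 (0.3), with strain as a block (0.0533), after renewed quantile normalization (0.0685) and with arrays centred on their median (0.0868). Mvk lost it in batch 1 (0.05 units, adjusted p = 0.537), after quantile normalization (0.05 units, 0.0944) and with the macrophage term, where its difference stayed at 0.06 units (0.0589), and Sc5d lost it in batch 1 (0.15 units, 0.0609).

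**Figure D2:**
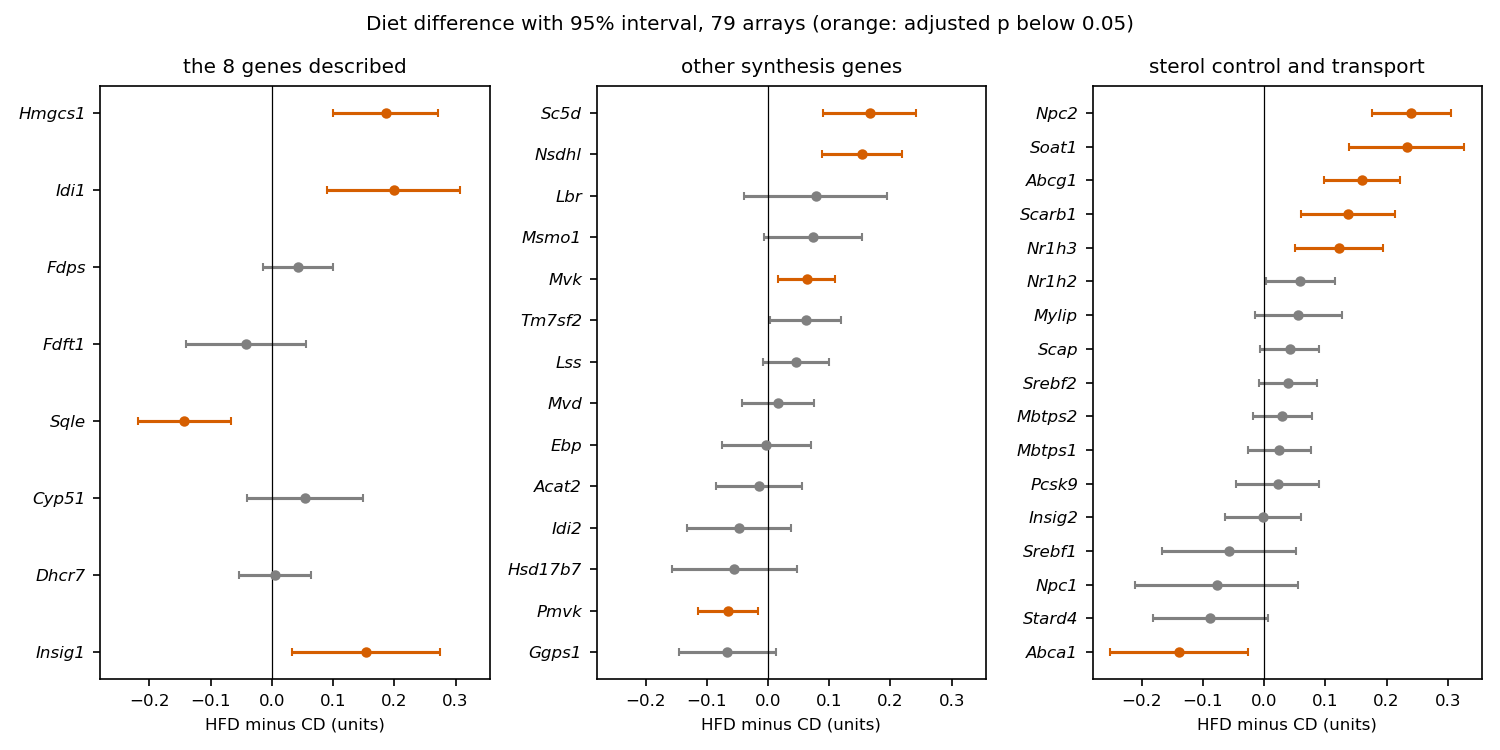
Differences between diets, HFD minus CD in units, with 95% intervals from limma over 79 arrays for the 8 genes (left), 14 other synthesis genes (middle) and 17 genes of sterol control and transport (right), with genes of adjusted p below 0.05 in orange. Called genes lie on both sides of 0 in each panel, from -0.14 units for Sqle and Abca1 to 0.24 units for Npc2.

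Of 17 genes of sterol control and transport, 5 rose and 1 fell on HFD, with a median difference of 0.04 units. The 35.3% called lay near the 38.1% called over all probesets. The 5 that rose were Npc2, which hands on cholesterol in lysosomes (0.24 units), Soat1, which esterifies it (0.23 units), the exporter Abcg1 (0.16 units), the HDL receptor Scarb1 (0.14 units) and the sterol sensor Nr1h3 (0.12 units). With the macrophage term Soat1 was at 0.09 units (adjusted p = 0.0727) and lost its call, and in batch 1 Scarb1 (0.176) and Nr1h3 (0.238) lost theirs. Abca1, another exporter, fell by 0.14 units (adjusted p = 0.0438), and the call was lost in batch 1 (adjusted p = 0.393), in batch 2 (0.128), with arrays centred on their median (0.0966), without dim probesets (0.0523) and without the 3 arrays of highest Alb (0.0596). The SREBP genes did not pass the test, with -0.06 units for Srebf1 (adjusted p = 0.432) and 0.04 units for Srebf2 (adjusted p = 0.195). Insig2, the relative of Insig1, gave -0.001 units (adjusted p = 0.982).

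Within strains, the direction of the diet difference varied from gene to gene. Hmgcs1 was higher on HFD in 31 of 37 strains, Insig1 in 29 and Idi1 in 26, whereas Sqle was lower in 26 of 37. Without BXD63 the counts were 30, 28, 25 and 26 of 36. The other 4 genes were split, with Fdps higher in 21, Cyp51 in 20 and Fdft1 and Dhcr7 in 18 of 37 strains, and without BXD63 the same counts were 21, 19, 17 and 17 of 36. Over all genes and strains, 174 of 296 differences were above 0, and 167 of 288 without BXD63. The same share was not taken over all probesets, so whether it was particular to these genes was not tested. Direction also varied with scaling. Of all probesets 18.9% were called higher and 19.3% lower on HFD, and 23.1% and 16.2% with arrays centred on their median.

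The per-strain differences of Hmgcs1 ran from -0.25 units in BXD48 through a median of 0.17 to 0.52 in BXD99. Those of Idi1 ran from -0.35 in BXD103 through 0.19 to 1.05 in BXD69, and those of Insig1 from -0.54 in BXD103 through 0.11 to 0.67 in BXD62. BXD103 and BXD56 were the 2 strains with the lowest differences for both Idi1 and Insig1. Sqle ran from -0.55 in BXD45 through -0.16 to 0.28 in BXD100. Fdft1 ran from -1.17 in BXD69 to 0.38 in BXD85, and the same BXD69 pair of arrays held the largest Idi1 rise. BXD69, BXD62, BXD45 and BXD100 had their arrays in different batches, and BXD48, BXD99, BXD103, BXD56 and BXD85 had both in batch 2. For Idi1 the median was 0.36 in the 8 strains with different batches. It was 0.23 in the 12 of batch 1 and 0.065 in the 17 of batch 2. In that order Sqle gave -0.268, -0.168 and -0.073, Hmgcs1 0.222, 0.224 and 0.114, and Insig1 0.154, 0.098 and 0.095. The part of batch in these differences was not tested.

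Without BXD63, none of the other 36 strains had all 8 genes higher on HFD and none had fewer than 3. The number of genes higher was 3 in 6 strains, 4 in 12, 5 in 8, 6 in 9 and 7 in BXD87. BXD63, whose arrays went against their diet labels, had 7 as labelled. Hmgcs1, Idi1 and Insig1 were all higher on HFD in 18 of 37 strains and all lower in 0, and 14 of the 18 strains also had Sqle lower. Without BXD63 all 3 were higher in 17 of 36 strains, of which 14 had Sqle lower. Both of Hmgcs1 and Idi1 were higher in 23 of 37 strains, and in 22 of 36 without BXD63. Hmgcs1, Idi1, Insig1 and Sqle were picked by their diet differences on the same arrays. Their joint counts rest on the counts of the single genes, were not tested and are a description only. Each strain and diet had 1 array, so no single strain was tested.

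**Figure D3:**
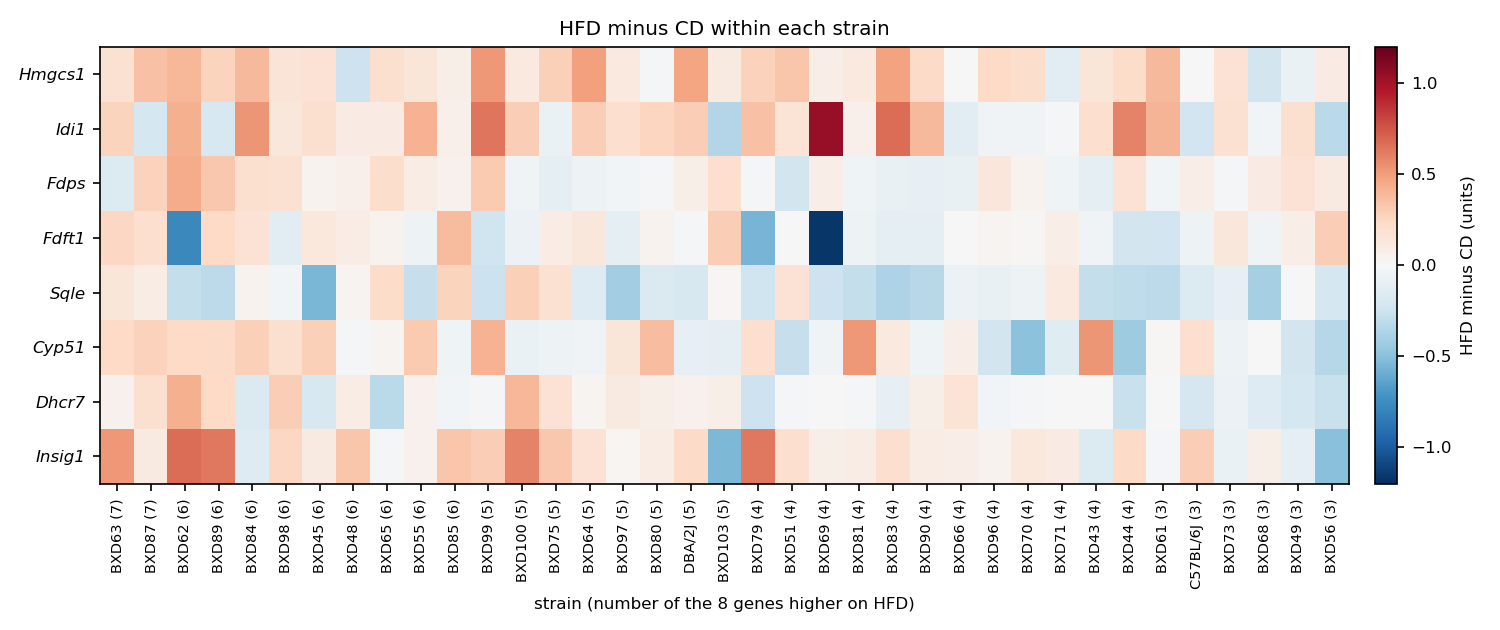
Differences within each of 37 strains, HFD minus CD in units, as a colour from blue (lower on HFD) to red (higher on HFD), with genes in rows and strains in columns ordered by the number of genes higher on HFD, with BXD63 as labelled. Hmgcs1 is red in 31 of 37 columns and Sqle blue in 26, and the darkest cells are those of BXD69 for Idi1 (1.05) and Fdft1 (-1.17).

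Values also ranged over the strains within each diet. Each strain had 1 array on a diet, so a range holds array noise as well as strain differences. The distance from the lowest to the highest strain ran from 0.53 units for Dhcr7 to 1.54 units for Insig1 on CD, and from 0.47 units for Fdps to 1.41 units for Idi1 on HFD. The Insig1 range on CD rested on BXD56, without which it was 0.93 units, and the widest was then that of Idi1 at 1.16 units. On HFD the Idi1 range took in the BXD69 array, which stood apart. Without that array it was 1.12 units, and the widest was then that of Insig1 at 1.25 units. No other range of these genes narrowed by more than 1.31 times when its lowest or highest array was left out. The span from the 10th to the 90th percentile was 0.26 to 0.58 units on CD and 0.31 to 0.65 units on HFD. Insig1 had the widest such span and the highest SD on both diets, at SDs of 0.26 and 0.28 units. Its SD on CD takes in BXD56, and on HFD the SD of Fdft1 was nearly as high, at 0.276 units. For Hmgcs1, Idi1 and Insig1 the diet difference, taken between means, was smaller than the range within a diet, which rests on 2 single arrays.

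The parental strains, with 1 array each on each diet and all 4 in batch 1, bore on whether the ends of the strain range came from one parent. Sqle lay at 7.62 in C57BL/6J and 7.36 in DBA/2J on CD, and at 7.46 and 7.17 on HFD. C57BL/6J was thus higher on both diets, by 0.28 units in a fit that took its spread from all strains (95% interval -0.03 to 0.59), which did not pass the test (limma, adjusted p = 0.68). Hmgcs1 lay at 9.44 and 9.40 on CD and at 9.43 and 9.87 on HFD, and Idi1 at 8.16 and 7.76 on CD and at 7.93 and 8.06 on HFD, in the same order of parents. Of the 8 genes 0 were called between the parents, with 0 at an unadjusted p below 0.05 and adjusted p from 0.68 to 1.0, where 1.26% of all probesets were called.

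BXD strains lay beyond both parents for every gene. On CD, 29 of 40 BXD strains lay above both parents for Hmgcs1 and 6 below, and 26 of 40 lay below both for Fdps. Insig1 had 14 above and 15 below. Dhcr7 had 0 of 40 above and 22 below, since C57BL/6J was the highest strain of all. On HFD the figures were 7 above and 4 below of 35 for Hmgcs1, 10 above and 22 below for Insig1, 23 above and 7 below for Idi1, which had 6 above and 8 below of 40 on CD, and 13 above and 22 below for Dhcr7. Each parent had 1 array a diet, so these counts describe positions and were not tested.

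The next comparison asked whether the genes moved together over strains. Among the 28 pairs of the 8 genes, the median r was 0.10 on CD, with a range of -0.40 to 0.47, and 0.20 on HFD, with a range of -0.22 to 0.45, whose lower end was -0.49 with Fdft1 by probeset 10420730. Of the 56 relations 0 passed the test after adjustment over all 56, and 7 on CD and 5 on HFD had an unadjusted p below 0.05 (two-sided permutation tests, batch means removed). With arrays centred on their median, 3 pairs were called on CD and 2 on HFD, all positive. The brightest Fdft1 probeset, in doubt as described above, gave separate clusters of 5 and 32 strains on HFD, so its HFD relations used the 32.

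Hmgcs1, Idi1 and Cyp51 formed the pairs of highest r on CD. Hmgcs1 and Cyp51 gave r = 0.47 (42 strains, permutation p = 0.00171, adjusted p = 0.0958) and rho = 0.35 (permutation p = 0.0254, adjusted p = 0.129). The r was 0.38 without the 2 strains farthest from the median, 0.71 in batch 1 and 0.15 in batch 2. Hmgcs1 and Idi1 gave r = 0.41 on CD (permutation p = 0.00626, adjusted p = 0.117; rho = 0.40, permutation p = 0.00903, adjusted p = 0.101) and 0.34 without the 2 farthest strains. On HFD the same pair gave r = 0.45 (37 strains, permutation p = 0.00493, adjusted p = 0.117) and rho = 0.57 (permutation p = 0.00023, adjusted p = 0.0129), with r = 0.46 without the 2 farthest strains, 0.49 in batch 1 and 0.43 in batch 2. By Spearman's rho this was the 1 pair of 56 that was called. Without the 3 arrays of lowest median correlation, Hmgcs1 and Idi1 on HFD were at r = 0.60 (34 strains, adjusted p = 0.0123) and Hmgcs1 and Cyp51 on CD passed at adjusted p = 0.0479.

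Fdft1 ran against other genes on CD, by its brightest probeset. Its r was -0.40 with Insig1, -0.38 with Idi1 and -0.33 with Hmgcs1, none of which passed the adjusted test. With probeset 10420730 the same pairs gave -0.02, -0.44 and -0.04. On HFD the brightest probeset gave -0.22, -0.16 and -0.13, and 10420730 gave -0.01, -0.30 and -0.49, of which the last had adjusted p = 0.0641. In the responses Hmgcs1 and Fdft1 by 10420730 gave -0.41 (adjusted p = 0.159). Sqle had r from -0.17 to 0.35 with the other genes over both diets. Its r with Fdft1 on HFD was 0.26 by the brightest probeset and -0.295 by 10420730. On HFD Fdps had a positive r with all 7 other genes, from 0.19 to 0.39, and r was -0.07 with Fdft1 by probeset 10420730.

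**Figure D4:**
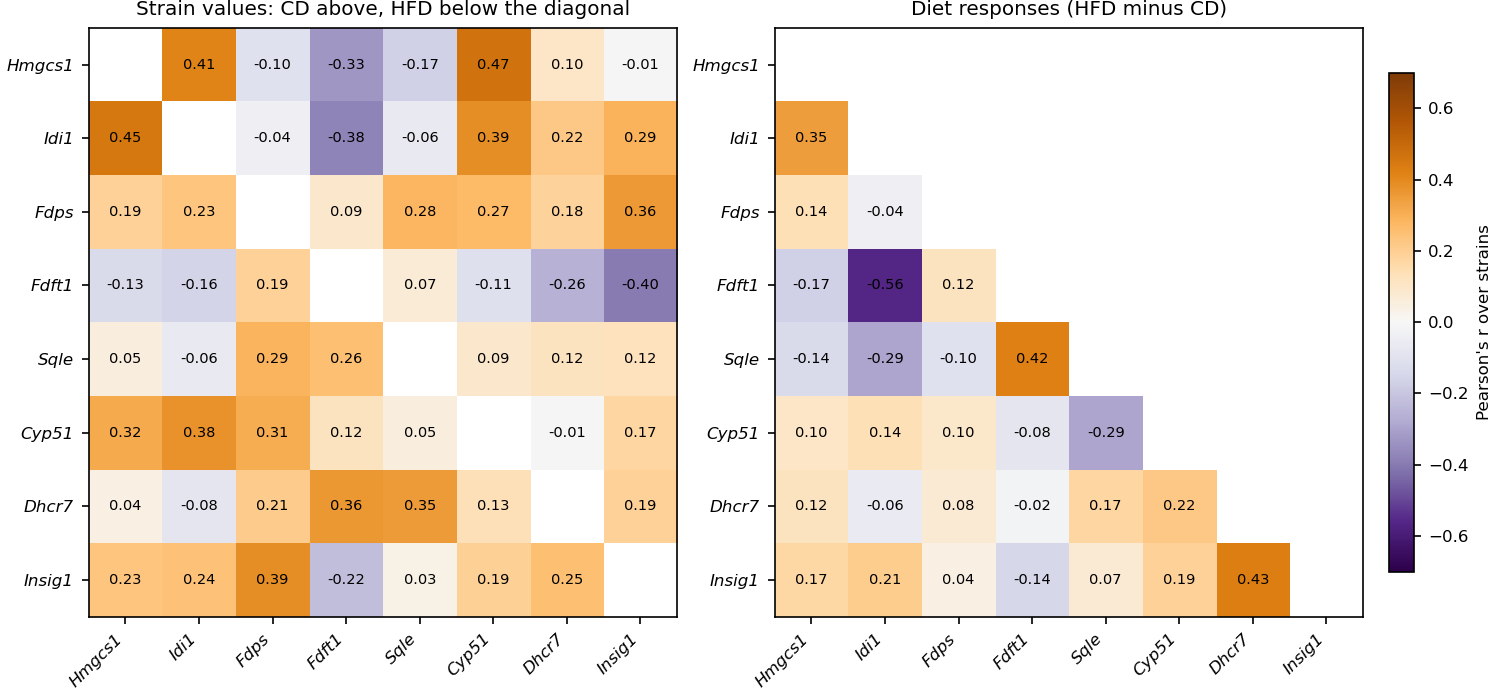
Pearson's r over strains for each pair of the 8 genes, with CD (42 strains) above and HFD (37 strains; 32 for Fdft1) below the diagonal on the left, and HFD minus CD within strain (37 strains; 34 for Fdft1) on the right. Most cells lie between -0.4 and 0.5, and the darkest cell is Idi1 with Fdft1 in the responses (-0.56).

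The responses to diet, taken as HFD minus CD within strain, gave a median r of 0.09 over the 28 pairs, with a range of -0.56 to 0.43. Of the 28 relations 1 was called, Idi1 with Fdft1 at r = -0.56 (34 strains, permutation p = 0.00057, adjusted p = 0.016), and rho was -0.49 (permutation p = 0.00349, adjusted p = 0.0977). Its r was -0.45 without the 2 farthest strains (adjusted p = 0.3), -0.54 in batch 1 and -0.62 in batch 2, and with probeset 10420730 it was -0.11 (adjusted p = 0.804). The 3 strains in a separate cluster, BXD62, BXD69 and BXD79, at -1.17 to -0.56 units for Fdft1, were left out of its relations and are those of the 3 arrays of lowest median correlation. Hmgcs1 and Idi1, which both rose, had responses with r = 0.35 (37 strains, permutation p = 0.0351, adjusted p = 0.246) and rho = 0.38 (permutation p = 0.0205, adjusted p = 0.192), and r was 0.34 without the 2 farthest strains.

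Whether r differed between the diets was tested by exchanging the diets within strains. Of the 28 pairs 0 were called, with 1 at an unadjusted p below 0.05. That pair was Fdft1 with Dhcr7, at r = -0.33 on CD and 0.36 on HFD over 32 strains (permutation p = 0.00787, adjusted p = 0.22). By probeset 10420730 its r was -0.13 on CD and -0.10 on HFD. The r was higher on HFD in 19 of the 28 pairs.

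A strain's value on CD was then set against its value on HFD. Insig1 gave r = 0.53 over 37 strains (permutation p = 0.00079, adjusted p = 0.00604) and rho = 0.57 (permutation p = 0.00026, adjusted p = 0.00208). Hmgcs1 gave r = 0.50 (permutation p = 0.00151, adjusted p = 0.00604) and rho = 0.42 (permutation p = 0.00979, adjusted p = 0.0261). Fdft1 gave r = 0.47 over 32 strains (permutation p = 0.00606, adjusted p = 0.0162) and rho = 0.53 (permutation p = 0.00178, adjusted p = 0.00712), and by probeset 10420730 r = 0.49 over 37 strains (permutation p = 0.00181). The other 5 genes gave r from 0.11 for Dhcr7 to 0.30 for Cyp51, and none of them passed. An r of at least 0.5, which Insig1 and Hmgcs1 reached, was found for 7.69% of all probesets, whose median r was 0.14.

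These relations rested in part on few strains. With the 2 most distant strains on the CD axis left out, r was 0.43 for Insig1 (adjusted p = 0.0734), 0.31 for Hmgcs1 (adjusted p = 0.128) and 0.40 for Fdft1 (adjusted p = 0.112), so none was called. For Insig1, r was 0.66 in the 12 strains of batch 1, 0.66 in the 17 of batch 2 and -0.45 in the 8 with arrays in different batches. For Hmgcs1 the same values were 0.79, 0.34 and 0.28. Without the strains of the 3 arrays of lowest median correlation, Idi1 (r = 0.38) and Fdps (r = 0.39) were called too.

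**Figure D5:**
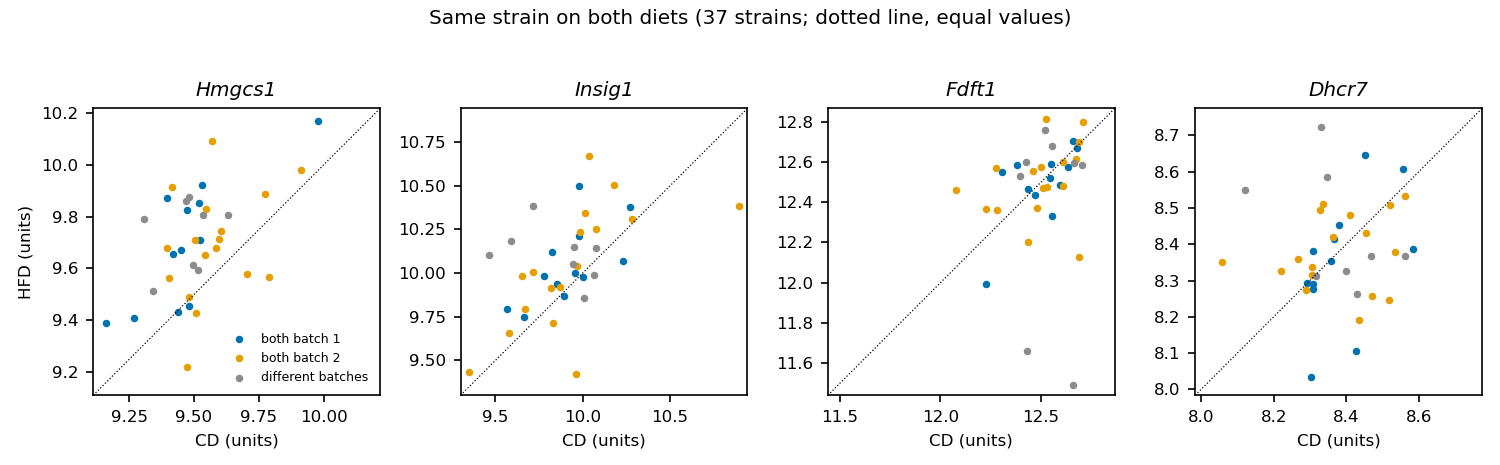
Values of the same strain on CD (x axis) and HFD (y axis), in units, for Hmgcs1, Insig1, Fdft1 and Dhcr7 in 37 strains, coloured by the batches of the 2 arrays, with a dotted line of equal values. Hmgcs1 and Insig1 lie mostly above the line, in 31 and 29 of 37 strains, 3 strains of Fdft1 lie 0.56 to 1.17 units below it, and Dhcr7 (r = 0.11) shows no slope.

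Genes were then ranked by the median of their 8 values of r with these genes over the 79 arrays, with diet and batch means removed, as a description. Tmx2, which encodes a thioredoxin-related membrane protein, was first with a median r of 0.38, and 7 of its 8 values were positive, with Fdft1 at -0.19. Scd2, a desaturase of fatty acids, was second at 0.35 and was positive with all 8, from 0.02 for Fdft1 to 0.64 for Insig1. The next 8 genes, at 0.31 to 0.35, were Ttll1, Kdelr3, Ap3s1, Anxa2, Mkks, Tfrc, Narf and Fkbp7. The median over all probesets was 0.01 and the 99th percentile was 0.21.

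Genes of the pathway were spread over this ranking, with a median r of -0.10 to 0.25 for the 14 other synthesis genes and of -0.17 to 0.28 for the 17 genes of sterol control and transport, and the first 50 genes held 0 of the former and 1 of the latter. Srebf1 had a median r of 0.28, above 99.9% of all probesets and at rank 33, and was positive with all 8 genes, from 0.15 to 0.37. Srebf2 and Nsdhl each had a median r of 0.25, above 99.7%, Acat2 one of 0.24, above 99.6%, and Lss and Msmo1 ones of 0.19 and 0.20, above 98.5%. The medians of the lists were 0.08 and 0.05, beside 0.18 for the 4 macrophage markers and 0.14 for the 4 fibroblast markers. Lyz2 and Csf1r of the macrophage list stood at 0.24 and 0.22, above 99.6% and 99.3% of all probesets. Adgre1 and Cd68 of the same list stood at 0.14 and 0.05, above 94.2% and 71.7%. All these values share the same 79 arrays, and no test was made of them.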

How the data were processed

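Quadriceps RNA, pooled from about 5 mice of a strain and diet, was hybridised to 79 Affymetrix Mouse Gene 1.0 ST arrays. The values deposited by the authors are a score per probeset, scaled to a mean of 8.0 and an SD of 2.0 on each array. The submitters' processing notes name Affymetrix Expression Console. The log base, background method and any batch correction are not given in the sources used here. Arrays carry no counting depth, and their number limits the precision. The column named BXD92 was matched to the sample titled BXD92a.

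The diet difference was fitted with limma (version 3.58.1 in R 4.3.3, lmFit and eBayes, diet and batch as terms) over all 35556 probesets, with Benjamini-Hochberg adjustment and calls at an adjusted p below 0.05. The parental difference used 1 coefficient a strain, diet and batch. Relations over strains used Pearson's r and Spearman's rho with two-sided permutation p-values (100000 draws) after batch means were removed within each diet, adjusted over the 56, 28 or 8 relations of a family. Strains in separate clusters (a mixture of 2 normal components that lowered the BIC by at least 10, with Ashman's D above 2) were kept apart. Strain pairs the arrays across diets, since the labels name the same inbred strain: deviations from the diet and batch means correlated between -0.131 and 0.392 within a strain (median 0.205), above 0.1 in 33 of 37. The methods' t-test, without batch, was an alternative. Scripts were tested on simulated data.

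The 8 genes and all lists were chosen with earlier results of these data known. Some genes of the pathway are not reported here. Text names follow a rule: the 8 genes by their probeset of highest mean, every called gene of both pathway lists plus Srebf1, Srebf2 and Insig2, the 10 genes most like the 8, and markers as list counts with up to 3 named. Named outside it, after their values were seen, were Alb, Lyz2, and by likeness Nsdhl, Acat2, Lss and Msmo1, and the other probesets of Fdft1 and Idi1. Alternatives that left out the arrays standing apart (other than BXD63), used marker terms or another Fdft1 probeset were added after the data were seen. Figures were drawn with matplotlib 3.10.9, and permutations and mixtures used NumPy 2.4.6, scikit-learn 1.9.0, SciPy 1.17.1 and pandas 2.3.3 under Python 3.11.15.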

Additional observations from a re-analysis of the deposited data

How the results depend on the processing

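Of the 8 genes, 4 were called between diets, 0 in batch 1 alone and 2 with the macrophage marker mean as a term. The other alternatives gave 3 to 4. With strain as a replicate block 4 were called, Hmgcs1 at 0.18, Idi1 at 0.18, Insig1 at 0.14 and Sqle at -0.12 units, and 12 of the 31 other pathway genes against 10 without the block, where 40.6% and 38.1% of all probesets were called. Among the 8 genes the block changed no call, and among the pathway genes named here that of Pmvk alone. Batch 1 alone gave 4 of the 31, where 12.6% of all probesets were called. The 0 called relations within diets became 1 by Spearman's rho, 2 in batch 1, 2 without the 3 arrays of lowest median correlation and 5 with arrays centred on their median. The 1 called relation of the responses became 0 by Spearman's rho, without the 2 farthest strains, in batch 1, in batch 2 and with probeset 10420730 for Fdft1, and 3 with arrays centred on their median. The 3 relations between diets became 0 without the 2 farthest strains, 1 in batch 1, 1 in batch 2 and 5 without the strains of the 3 arrays of lowest median correlation. The median range over strains was 0.74 units on CD and 0.92 on HFD, and 0.43 and 0.50 from the 10th to the 90th percentile. Among the 8 genes and the uncalled genes that the naming rule adds, differences that did not pass the test changed sign as follows. Fdft1 went to 0.02 units without the 3 arrays of lowest median correlation, 0.053 with the macrophage term and 0.042 with probeset 10420730. Cyp51 went to -0.002 with the macrophage term, and Dhcr7 to -0.003 in batch 1, -0.000121 with the macrophage term and -0.002 with the adipocyte term. Insig2 went to 0.007 in batch 2, 0.007 with the block, 0.016 with median centring, 0.008 without the parents, 0.005 without the 3 arrays of highest Alb, 0.007 with the macrophage term and 0.013 with the adipocyte term. The cause of these changes was not tested, and single batches hold fewer arrays. No called gene of the 8 or of the pathway lists changed sign under these alternatives. The parental comparison gave 0 calls under all 4 alternatives, and the test of r between diets gave 0 under both.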
